A study of Mus musculus with 10 samples.

Results

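The transcripts described here are those of 8 genes of the kinase axis around TAK1: Map3k7, Tab1, Tab2, Tab3, Nlk, Ikbkb, Chuk and Ikbkg. They were chosen by name, by matching the Ensembl IDs of the count table, without the version, to gene symbols in GENCODE mouse M21, and 8 of 54446 counted genes were taken. All 8 passed the filter on low counts and were among the 15181 genes tested. The RNA came from primary smooth muscle cells of the mouse aorta, freed with collagenase and grown to passage 2, from 5 wild type mice (WT) and 5 KitW/WV mice, which carry the alleles W and Wv of Kit (WWv). Each group had 5 libraries. Kit encodes the receptor tyrosine kinase c-Kit, and the mutant alleles are inherited, so that every cell of a WWv animal carries them. The sources used here give no age, sex, background strain or litter, and do not state that each library came from 1 mouse, so p-values measure the spread between these libraries. No agent was named for either group. The comparison of WWv with WT asks which transcripts differ when vascular smooth muscle lacks normal c-Kit signalling.

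TAK1, the product of Map3k7, is a MAP kinase kinase kinase that is switched on downstream of receptors for interleukin-1, tumour necrosis factor, Toll-like receptor ligands and TGF-beta. It works with the adaptor TAB1, which binds and activates it, and with TAB2 or TAB3, which hold it on polyubiquitin chains. Active TAK1 phosphorylates the IKK complex, made of the kinases IKK-alpha (Chuk) and IKK-beta (Ikbkb) and the regulatory subunit NEMO (Ikbkg), and so frees NF-kB, a driver of inflammatory genes in vascular smooth muscle. It also activates the kinases above JNK and p38, and it can act through NLK, the Nemo-like kinase, which phosphorylates TCF and LEF factors and other nuclear proteins. Much of this regulation is by ubiquitin and phosphate, which transcript counts do not show.

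Within the axis, 3 transcripts were higher in WWv cells (Tab2, Nlk and Ikbkg) and 2 were lower (Ikbkb and Tab1). Map3k7, Tab3 and Chuk did not pass the threshold. A gene was called when its adjusted p in edgeR's quasi-likelihood test was under 0.05 after Benjamini-Hochberg adjustment over all tested genes. The 5 calls are 62.5% of the axis, in a comparison that called 28.2% of all tested genes, 12.8% higher and 15.4% lower. The changes were small: the absolute log2 fold change (WWv over WT) ran from 0.07 in Chuk to 0.24 in Tab1, with a median of 0.18, against a median of 0.19 over all tested genes and 0.42 over all called genes. The signed median was 0.16 in the axis and −0.01 over all tested genes. Members were read deeply, at 408 to 8278 counts per library, and their coefficients of variation within a group lay between 1.77% and 10.2%.

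**Figure D1:**
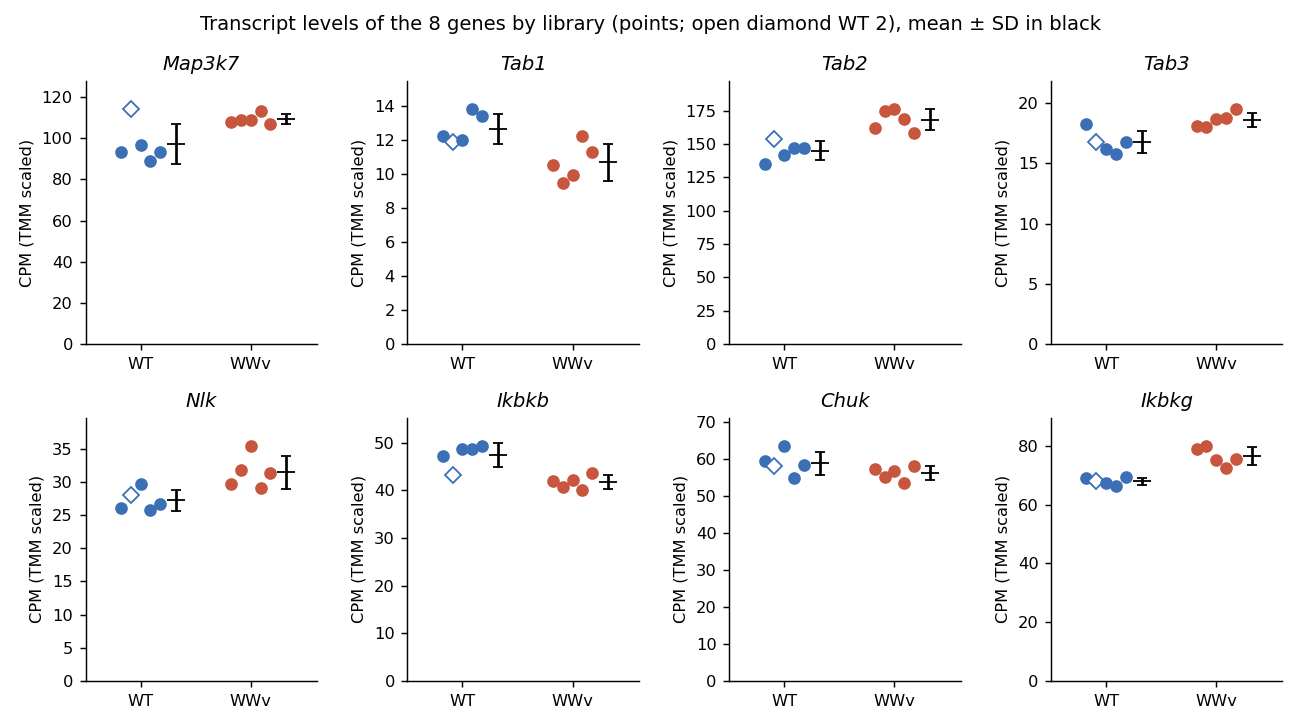
Normalised read counts (CPM, TMM scaled, linear axis from 0) of the 8 genes in each of the 5 WT (blue) and 5 WWv (red) libraries, with the mean ± SD of each group in black. The groups are separate in Tab2 and Ikbkg, whereas in Map3k7 the open diamond, WT 2, stands at 114 CPM above all WWv libraries.

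Kit itself was lower in every WWv library, at 2.00 ± 0.764 CPM against 4.12 ± 0.629 CPM in WT (SD, n = 5 each, log2 fold change −1.04 ± 0.25 SE, edgeR adjusted p = 0.0122). With the mean of the cell cycle genes as a covariate the change of Kit was −1.17 and missed the threshold (adjusted p = 0.0609). The libraries held 42040255 to 53863661 counts. Of 8 smooth muscle markers all were detected, with a summed level of 9955 to 13019 CPM in WT and 16764 to 20149.7 CPM in WWv, and 6 rose. Of 8 endothelial markers 7 were tested and 0 were called, with 4 higher without WT 2 and 1 lower without WT 4, and their sum was 56.1 to 340.2 CPM in WT, highest in WT 2, and 92.9 to 212 CPM in WWv. Of 8 macrophage and leukocyte markers 5 were tested, 4 stayed below 1 CPM in every library, and 0 were called, with 2 lower without WT 2 and 1 without WT 5 (sum 20.6 to 41.3 and 20.7 to 25.7 CPM). Of 8 adventitial fibroblast markers 4 fell, among them Lum, which encodes the proteoglycan lumican (−4.02 ± 0.66, adjusted p = 0.00209, with WT 2 at 2.63 CPM and a call that limma-voom and the cell cycle covariate did not make). Without WT 2 the fibroblast list had 5 lower genes and 1 higher, Cd34. Cd34 was highest in WT 2 (69.0 CPM), as was the endothelial sum. The 8 fibroblast markers summed to 556 to 1215 CPM in WT, lowest in WT 2, and 562 to 841 CPM in WWv. For comparison, 12.8% of all tested genes were higher and 15.4% lower. The fit without WT 2 had 22.7% higher and 23.5% lower. No marker was at 0 in all libraries. In bulk RNA, fewer cells of a type and less RNA per cell cannot be told apart, and the part of these markers in the changes below was not tested.

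WT 2 stood apart from the other WT libraries over all tested genes as well as in the cell cycle genes. The first principal component of log2 CPM, the main axis of variation among the libraries, held 52.5% of the variance. On it WT 2 was at 20.15, within the WWv range of 11.49 to 33.43. The other WT libraries were at −51.12 to −29.07. The mean of 22 cell cycle genes was 5.629 log2 CPM in WT 2. WT 1, 3, 4 and 5 had 4.889 to 5.067 and the WWv libraries 5.422 to 5.636. Only WT 2 among the WT libraries thus lay in the WWv range. In the fits that take this mean as a covariate, it goes along with group in all libraries but WT 2. The group term of those fits therefore rests largely on WT 2, and a call lost there was not read as an effect of the cell cycle. Of the 22 genes 11 were higher in WWv, where 12.8% of all tested genes were higher. Without WT 2 the number was 21, in a fit with 22.7% of all tested genes higher.

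The stretches of genome just before the start sites of Nlk, Map3k7 and Tab2 are shown as examples: TAK1 and NLK give the axis its name, and Tab2 is the adaptor with the highest level. They are RefSeq promoter windows of build GRCm38.p6, written 5′ to 3′ on the strand of the gene, and cut so that no base lies inside the gene in GENCODE. Capitals mark matches on either strand to the GC box (GGGCGG), the CCAAT box (CCAAT), the TATA box (TATAAA), the AP-1 site (TGANTCA), the ETS core (CCGGAAG) or the kappaB consensus.
Nlk, chr11:78697426-78697675, minus strand: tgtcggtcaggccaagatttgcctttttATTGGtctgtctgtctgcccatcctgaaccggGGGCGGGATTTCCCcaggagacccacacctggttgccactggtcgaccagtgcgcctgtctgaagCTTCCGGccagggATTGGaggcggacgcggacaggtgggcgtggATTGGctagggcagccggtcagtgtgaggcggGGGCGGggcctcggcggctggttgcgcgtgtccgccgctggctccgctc
Map3k7, chr4:31963857-31964096, plus strand: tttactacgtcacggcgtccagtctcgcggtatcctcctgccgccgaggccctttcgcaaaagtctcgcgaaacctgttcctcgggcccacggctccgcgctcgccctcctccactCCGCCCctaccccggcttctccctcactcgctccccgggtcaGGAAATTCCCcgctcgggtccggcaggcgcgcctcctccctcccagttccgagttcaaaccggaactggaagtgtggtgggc
Tab2, chr10:7956231-7956373, minus strand: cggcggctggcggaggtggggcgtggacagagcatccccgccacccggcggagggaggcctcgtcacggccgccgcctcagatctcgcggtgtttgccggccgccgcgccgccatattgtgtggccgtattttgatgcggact

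The Nlk window of 250 bases (66.4% G+C) held 2 GC boxes, 3 CCAAT boxes read on the opposite strand, 1 ETS core and 1 kappaB match, which overlaps the first GC box. Among 32851 RefSeq windows of that length, 32.7% held a GC box, 33.8% a CCAAT box, 6.91% an ETS core and 3.90% a kappaB match, and the median G+C was 52.4%. The Map3k7 window of 240 bases (66.7% G+C) held 1 GC box and 1 kappaB match, found in 31.3% and 3.75% of windows of that length. The Tab2 window of 143 bases (71.3% G+C) held 0 matches to the 6 motifs, which says only that these letters are not in it. The windows of Tab3, Chuk and Ikbkg, which are not shown, each held 0 kappaB matches. Among the members with a window, Nlk and Map3k7 were thus the only ones with such a match. A match is a description of the letters and not a bound site.

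Map3k7 (ENSMUSG00000028284.13, chromosome 4, 31964097 to 32023467, plus strand, GRCm38) stood at 93.1, 114, 96.6, 89.1 and 93.4 CPM in WT 1 to 5 and at 108, 109, 109, 113 and 107 CPM in WWv 1 to 5. The WWv libraries lay close together and above all WT libraries but WT 2, which was the highest of the 10. With all libraries the difference did not pass (97.3 ± 9.86 and 109 ± 2.38 CPM, log2 fold change 0.17 ± 0.06 SE, adjusted p = 0.0702). Without WT 2 it passed, at 0.23 (adjusted p = 0.00062), in a comparison that then called 46.2% of tested genes, 22.7% higher and 23.5% lower. Leaving out any other library gave 0.14 to 0.17 and no call. Across the 10 libraries Map3k7 followed the cell cycle mean, with a Pearson r of 0.96, and the deviations from the group means gave 0.93. With the cell cycle mean as a covariate its change was −0.02 (adjusted p = 0.873). These correlations are descriptions over 10 libraries, and both include WT 2. That library was far from the other WT libraries in both measures (5.629 against 4.889 to 5.067 log2 CPM, 114 against 89.1 to 96.6 CPM). The r values were not computed without WT 2.

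TAB1, the adaptor that activates TAK1, had a lower transcript in WWv. Tab1 (ENSMUSG00000022414.8, chromosome 15, 80133127 to 80161707, plus strand) was at 12.2, 11.9, 12.0, 13.8 and 13.4 CPM in WT 1 to 5 and at 10.5, 9.47, 9.96, 12.2 and 11.3 CPM in WWv 1 to 5. In 4 of 5 WWv libraries it was below every WT library, and WWv 4 overlapped with WT. The fall from 12.7 ± 0.865 to 10.7 ± 1.09 CPM (1.18-fold lower, −0.24 ± 0.08, adjusted p = 0.0451) was close to the threshold. It was lost without WT 1 (adjusted p = 0.0678), WT 3 (0.0621), WT 4 (0.104), WT 5 (0.0993), WWv 1 (0.0734), WWv 2 (0.101) or WWv 3 (0.100), always with the same sign. It was also lost without the filter on low counts (−0.24, adjusted p = 0.0867) and with the cell cycle mean as a covariate (−0.15, adjusted p = 0.451).

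Tab2, whose product links TAK1 to ubiquitin chains, was the most abundant member and rose with no overlap between the groups. Tab2 (ENSMUSG00000015755.16, chromosome 10, 7905653 to 7956230, minus strand) was at 135, 154, 142, 147 and 147 CPM in WT 1 to 5 and at 162, 175, 176, 169 and 158 CPM in WWv 1 to 5. All 5 WWv libraries lay above all WT libraries, the closest pair being WT 2 and WWv 5. The rise from 145 ± 6.98 to 168 ± 7.92 CPM was 1.16-fold (0.21 ± 0.05, adjusted p = 0.01), and the call held when any single library was left out (adjusted p from 0.00212 to 0.0358). Non-overlap of the groups occurred in 2 of 8 members (25.0%) and in 15.9% of all tested genes. The call of Tab2 was lost when library size alone was used for scaling (0.13, adjusted p = 0.0916) and with the cell cycle mean as a covariate (0.15, adjusted p = 0.188).

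The related adaptor gene Tab3 (ENSMUSG00000035476.9, chromosome X, 85574022 to 85634469, plus strand) was low, at 18.3, 16.8, 16.2, 15.8 and 16.8 CPM in WT 1 to 5 and 18.1, 18, 18.7, 18.8 and 19.5 CPM in WWv 1 to 5. WT 1 alone among the WT libraries reached into the WWv range. The difference, 16.8 ± 0.974 and 18.6 ± 0.599 CPM, did not pass (0.15 ± 0.05, adjusted p = 0.0545), and it passed without WT 1 (0.18, adjusted p = 0.0288), without WT 2 (0.15, adjusted p = 0.0417), in DESeq2 (0.15, adjusted p = 0.0340) and in limma-voom with quality weights (0.15, adjusted p = 0.0275).

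The 3 adaptor transcripts thus did not move together. The log2 ratio of Tab2 to Tab1, which needs no scaling between libraries, was 3.42 to 3.69 in WT and 3.79 to 4.21 in WWv, a difference of 0.46 with no overlap. Per length of the principal transcript, Tab1 made up 10.7 ± 0.698% of the 3 adaptor transcripts in WT and 8.05 ± 0.949% in WWv, Tab2 82.7 ± 0.943% and 85.4 ± 1.25%, and Tab3 6.61 ± 0.598% and 6.52 ± 0.365%. The ratio and the shares were looked at with the single changes known and were not tested.

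Nlk (ENSMUSG00000017376.15, chromosome 11, 78567168 to 78697373, minus strand), which encodes the Nemo-like kinase, was at 26.0, 28.0, 29.6, 25.8 and 26.7 CPM in WT 1 to 5 and at 29.7, 31.7, 35.4, 29.0 and 31.3 CPM in WWv 1 to 5. WWv 4 overlapped with WT 3, and the other 4 WWv libraries lay above all WT libraries. The rise from 27.2 ± 1.61 to 31.4 ± 2.48 CPM was 1.15-fold (0.21 ± 0.06, adjusted p = 0.0330). The call was lost without WT 1 (adjusted p = 0.0768), WT 4 (0.0774), WT 5 (0.0697), WWv 2 (0.0759), WWv 3 (0.0839) or WWv 5 (0.0673), with changes of 0.16 to 0.20. It was also lost with library size only (0.12, adjusted p = 0.177), without the filter on low counts (0.21, adjusted p = 0.0648) and with the cell cycle mean as a covariate (0.15, adjusted p = 0.342). The log2 ratio of Nlk to Map3k7 overlapped between the groups, at −1.83 ± 0.12 in WT and −1.80 ± 0.13 in WWv.

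In the IKK complex the transcript of the catalytic subunit IKK-beta fell, while that of the regulatory subunit NEMO rose. Ikbkb (ENSMUSG00000031537.15, chromosome 8, 22659212 to 22706589, minus strand) was at 47.2, 43.2, 48.6, 48.7 and 49.3 CPM in WT 1 to 5 and at 42.0, 40.6, 42.2, 40.1 and 43.7 CPM in WWv 1 to 5. WT 2 was the lowest WT library and lay below WWv 5. The fall from 47.4 ± 2.45 to 41.7 ± 1.44 CPM was 1.14-fold (−0.18 ± 0.05, adjusted p = 0.0166), and it passed when any single library was left out (−0.21 to −0.17). Ikbkb ran against the cell cycle mean (Pearson r of −0.93 over 10 libraries, −0.83 for deviations from the group means). Both r values include WT 2, the lowest WT library in Ikbkb and the highest in the cell cycle mean. With that mean as a covariate the call of Ikbkb was lost (−0.07, adjusted p = 0.439).

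Ikbkg (ENSMUSG00000004221.16, chromosome X, 74393290 to 74453854, plus strand) was at 69.0, 67.9, 67.4, 66.4 and 69.4 CPM in WT 1 to 5 and at 79.0, 80.0, 75.3, 72.6 and 75.6 CPM in WWv 1 to 5. The WT libraries were within a narrow range and all WWv libraries were above them. The rise from 68.0 ± 1.2 to 76.5 ± 2.98 CPM was 12.5% (0.17 ± 0.04, adjusted p = 0.0101) and passed when any single library was left out (adjusted p from 0.00529 to 0.0348). WT 2, at 67.9 CPM, lay with the other WT libraries, and the change with the cell cycle mean as a covariate was of the same size (0.18) but not past the threshold (adjusted p = 0.0810). With library size only it was 0.09 (adjusted p = 0.134). Ikbkg shares 418 of its 8110 exon bases with G6pdx, which is read from the other strand, and its count is therefore uncertain. G6pdx, which encodes glucose-6-phosphate dehydrogenase, went the other way, from 161 ± 19.8 to 91.0 ± 11.6 CPM (−0.82 ± 0.10, adjusted p = 0.000676).

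Tab3 and Ikbkg lie on the X chromosome. Of 485 tested X-linked genes 11.1% were higher and 15.7% lower. The X-inactivation transcript Xist was at most 0.195 CPM in any library, and the Y-linked Ddx3y was at 64.4 to 77.7 CPM in WT and 76.8 to 88.4 CPM in WWv, so both groups had the Y-linked transcript and almost no Xist.

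Chuk (ENSMUSG00000025199.16, chromosome 19, 44073335 to 44107480, minus strand), the gene of IKK-alpha, was at 59.3, 58.2, 63.5, 54.9 and 58.4 CPM in WT 1 to 5 and at 57.3, 55.1, 56.8, 53.4 and 58.1 CPM in WWv 1 to 5. The groups overlapped in 4 of 5 WWv libraries. The difference was −0.07 ± 0.05 (adjusted p = 0.295), with an approximate 95% interval of −0.16 to 0.02. It passed under library size only (−0.15, adjusted p = 0.0390).

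The log2 ratio of Ikbkg to Ikbkb was 0.55, 0.65, 0.47, 0.45 and 0.49 in WT 1 to 5 and 0.91, 0.98, 0.84, 0.86 and 0.79 in WWv 1 to 5. Every WWv library was above every WT library, including WT 2. Per length of the principal transcript, Ikbkb made up 33.0 ± 1.37% of the 3 IKK transcripts in WT and 29.9 ± 0.543% in WWv, Ikbkg 25.0 ± 0.737% and 28.9 ± 0.932%, and Chuk 41.9 ± 1.40% and 41.1 ± 0.429%. The log2 ratio of Chuk to Ikbkb overlapped between the groups, at 0.31 ± 0.10 in WT and 0.43 ± 0.02 in WWv. Like those of the adaptors, these ratios and shares were looked at with the single changes known and were not tested. The overlap of Ikbkg with G6pdx makes those that use Ikbkg uncertain too.

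**Figure D2:**
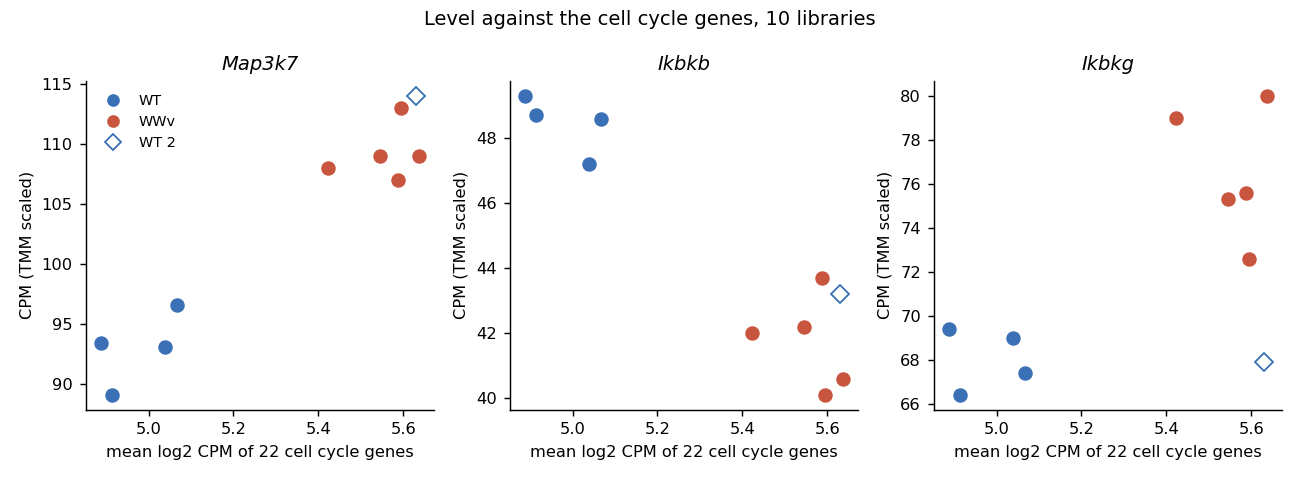
CPM of Map3k7, Ikbkb and Ikbkg (vertical axes, not from 0) against the mean log2 CPM of 22 cell cycle genes in the 10 libraries. WT 2, the open diamond at 5.629, lies with WWv in Map3k7 (114 CPM) and Ikbkb (43.2 CPM) and with WT in Ikbkg (67.9 CPM).

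The direction of 7 members was the same under 20 of 20 alternatives, that is other scalings, filters and tests, the replicate number as a block, the cell cycle covariate and each library left out in turn. The exception was Map3k7, which turned to −0.02 with the covariate. Ikbkb was called in 19 of the 20, Tab2 and Ikbkg in 18, Nlk and Tab1 in 11, Tab3 in 4, Map3k7 in 2 and Chuk in 1. With library size only, the median change of all tested genes moved from −0.01 to −0.09, the higher calls in the axis went from 3 to 0 and the lower ones from 2 to 3, in a comparison that then called 30.2% of tested genes, 6.48% higher and 23.7% lower. With the cell cycle covariate 0 of 8 members and 8.22% of all tested genes were called. Group and that covariate are largely confounded, as only WT 2 among the WT libraries lay in the WWv range. Why calls were lost in this fit was not tested.

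**Figure D3:**
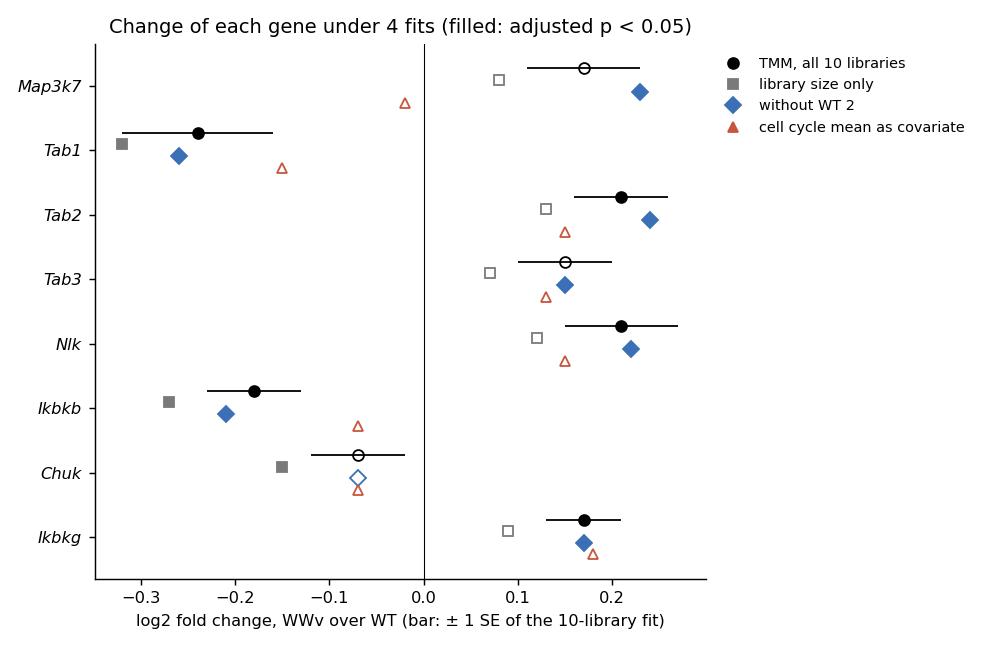
Log2 fold change (WWv over WT) of the 8 genes under 4 fits, with filled symbols for an adjusted p under 0.05 and bars of ± 1 SE for the fit of all 10 libraries with TMM. Ikbkb goes from −0.27 with library size only to −0.07 with the covariate, and Ikbkg from 0.09 to 0.18.

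Levels of different genes were compared per kilobase of the principal coding transcript. In WT the order was Tab2 (33.1 ± 1.59 CPM per kb), Map3k7 (17.2 ± 1.74), Chuk (16.8 ± 0.890), Ikbkb (13.2 ± 0.686), Ikbkg (10.0 ± 0.177), Nlk (6.12 ± 0.363), Tab1 (4.27 ± 0.292) and Tab3 (2.64 ± 0.153). Map3k7 and Chuk did not differ beyond their spread in WT. In WWv Tab2 was at 38.4 ± 1.81, Map3k7 at 19.3 ± 0.420, Chuk at 16.0 ± 0.541, Nlk at 7.07 ± 0.558, Tab1 at 3.61 ± 0.369 and Tab3 at 2.93 ± 0.0941 CPM per kb. Ikbkb at 11.7 ± 0.402 and Ikbkg at 11.3 ± 0.440 CPM per kb did not differ beyond their spread in WWv. The length used matters for Ikbkb: over all its annotated exon bases (19078, against 3580 in the principal transcript) its level in WT was 2.48 CPM per kb, about that of Tab3 on the same scale (2.53) and below the other members.

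**Figure D4:**
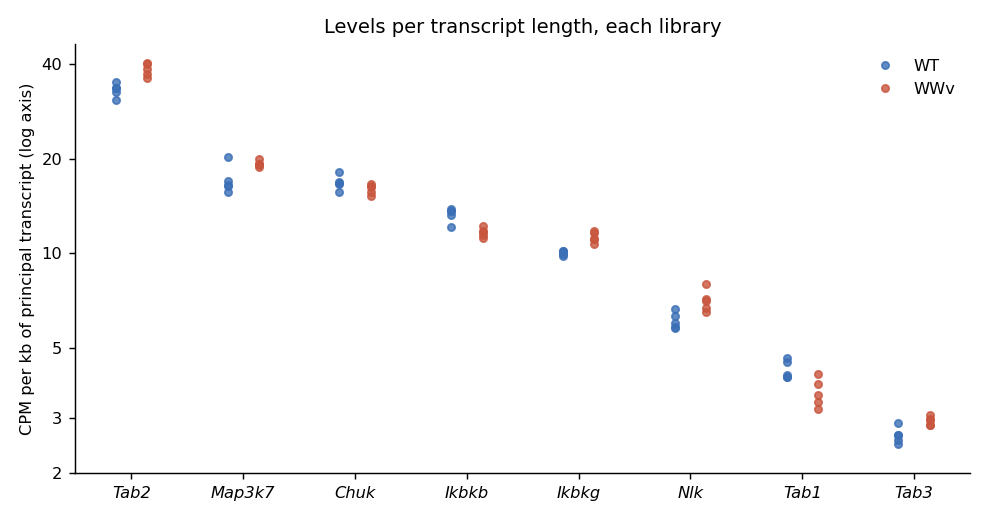
CPM per kilobase of principal transcript (log axis) of each gene in every WT (blue) and WWv (red) library. Tab2 is highest at 33.1 in WT and 38.4 in WWv, and Tab3 is lowest at 2.64 and 2.93.

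The genes most like each member over the 10 libraries, by Pearson correlation of log2 CPM among 12566 other genes with at least 1 CPM, are given as a description, since the libraries share the group difference and the position of WT 2. For Map3k7 they were Nes, which encodes the intermediate filament nestin (r = 0.996, Spearman rho = 0.952), Tagln2 (0.992, 0.952) and G3bp1, a stress granule protein gene (0.989, 0.976), and without WT 2 the r values were 0.995, 0.990 and 0.991. For Tab2 they were Ddah1, Tubg1 and Trnp1 (r = 0.994, 0.982 and 0.978), and for Ikbkb they were Grik5, Sbno2 and Ankrd39 (r = 0.987, 0.986 and 0.982). Nlk was nearest to the cell cycle transcription factor gene E2f3 (r = 0.945) and Ranbp2 (0.936). For Tab1 they were Erg, Mboat2 and Tulp1 (r = 0.948, 0.933 and 0.932), for Ikbkg Zbtb10, Osbpl5 and Zfp382 (0.964, 0.961 and 0.959), for Tab3 Rnh1, Atp6v0c-ps2 and Gm49336 (0.952, 0.948 and 0.937), and for Chuk Cept1, 5830448L01Rik and Ppif (0.973, 0.944 and 0.920).

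Around the axis, the receptors and adaptors that feed TAK1 were lower in 6 of 22 genes and higher in 2, with a median log2 fold change of −0.07. The calls were 36.4% of this list, against 28.2% of all tested genes. The largest falls in the list were those of Il1r1 and Myd88. Il1r1, the signalling receptor for interleukin-1, went from 83.1 ± 12.0 to 44.9 ± 2.31 CPM (−0.89 ± 0.09, adjusted p = 0.000343), and Myd88, the adaptor of interleukin-1 and Toll-like receptors, from 51.9 ± 7.61 to 32.8 ± 2.00 CPM (−0.66 ± 0.10, adjusted p = 0.00132), although Acaa1a overlaps Myd88. Birc2, which encodes the ubiquitin ligase cIAP1 at tumour necrosis factor receptors, fell by 0.40 ± 0.08 (adjusted p = 0.00483). Tgfbr1, the type I receptor of TGF-beta, rose by 0.42 ± 0.10 (adjusted p = 0.0115). The ligase gene Traf6, which links interleukin-1 receptors to TAK1 and was chosen after its values were seen, was at 19.3 and 18.9 CPM (−0.03, adjusted p = 0.763). Without WT 1, WT 3, WWv 3 or WWv 5 only 1 gene of the list was higher, and without WT 2 there were 8 lower. With the cell cycle mean as a covariate the list had 1 higher and 2 lower, and Birc2 was at −0.21 (adjusted p = 0.173). With library size only it had 1 higher and 8 lower.

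Of 9 ubiquitin chain writers and their E2 enzymes 2 were higher and 2 lower, with a median of −0.03. That is 44.4% called, against 28.2% of all tested genes. Rnf31 and Rbck1, which encode HOIP and HOIL-1 of the complex that builds linear chains on NEMO, fell by 0.28 ± 0.07 (adjusted p = 0.0109) and 0.22 ± 0.05 (adjusted p = 0.0110). Irf9 overlaps Rnf31, so its reads are uncertain. Peli2, a ligase gene of the Pellino family, rose by 0.90 ± 0.17 (adjusted p = 0.00432), and Gm6498 overlaps it. With the cell cycle covariate 0 genes of the list were called: Rnf31 was at −0.09, Rbck1 at −0.14 and Peli2 at 0.42 (adjusted p = 0.414, 0.219 and 0.135). With library size only 1 was higher and 3 were lower, and without WT 2 there were 3 higher. The other higher call, Ube2d3, was lost when any library other than WT 2 was left out, which left 1 higher gene in each of those 9 fits.

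Of 17 tested brakes on the pathway (deubiquitinases, phosphatases and inhibitory adaptors) 5 rose and 2 fell, with a median of 0.08. That is 41.2% called, against 28.2% of all tested genes. Rnf11, a partner of the A20 ubiquitin-editing complex, rose from 103 ± 3.32 to 131 ± 5.11 CPM (0.35 ± 0.04, adjusted p = 0.000556). Tnfaip3, the gene of A20 itself and chosen after its values were seen, was not called (−0.08, adjusted p = 0.813). Irak3, which encodes the inhibitory kinase relative IRAK-M, fell from 19.0 ± 5.18 to 9.04 ± 0.527 CPM (−1.07 ± 0.18, adjusted p = 0.00233), and Tmbim4 overlaps it. With the cell cycle mean as a covariate Rnf11 kept its call and Irak3 was at −0.35 (adjusted p = 0.0383). The second lower gene, Tnip2, lost its call without WT 1, WT 4 or WWv 2, which left 1 lower. Ppm1l, which had the largest rise of the list (0.82 ± 0.27, adjusted p = 0.0434), lost its call without any library other than WT 2 or WWv 5. It was also lost with library size only, the replicate block or the covariate. Leaving out 1 library gave 4 to 7 higher genes, with 7 without WT 2. There were 2 higher and 1 lower with the covariate, and 2 higher and 2 lower with library size only.

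Below TAK1, 2 of 12 tested MAP kinase kinases, MAP kinases and their effectors rose and 0 fell (median 0.08). That was 16.7% of the list, below the 28.2% of all tested genes. Mapk14, the gene of p38-alpha, went from 76.3 ± 4.80 to 91.9 ± 5.44 CPM (0.27 ± 0.06, adjusted p = 0.00666) and Mapkapk3, a kinase activated by p38, from 18.2 ± 5.69 to 29.4 ± 3.74 CPM (0.69 ± 0.18, adjusted p = 0.0170). Both calls were lost with the cell cycle mean as a covariate (adjusted p = 0.164 and 0.403), that of Mapk14 also with library size only. The list had 1 higher gene with the covariate, 1 higher and 1 lower with library size only, 3 higher without WT 2 and 1 lower without WWv 5. Among the IKK-related kinases and their adaptors 4 of 8 fell and 1 rose (median −0.16, 62.5% called against 28.2% of all tested genes). However, with the cell cycle covariate 1 fell and 0 rose, and with library size only 5 fell and 0 rose. Ikbke, the gene of IKK-epsilon, fell by 0.66 ± 0.12 (adjusted p = 0.00306), Map3k14, which encodes the NF-kB-inducing kinase NIK of the noncanonical pathway, by 0.53 ± 0.08 (adjusted p = 0.00135) and Map3k8, which encodes TPL2, by 1.44 ± 0.28 (adjusted p = 0.00495). Noncoding transcripts overlap Ikbke and Map3k14, and with the covariate Ikbke was at −0.29 (adjusted p = 0.118). In Map3k8 WT 2 stood at 3.41 CPM against 9.60 to 11.6 CPM in the other WT libraries, and its change with the covariate was −0.34 (adjusted p = 0.420). The gene that rose, Traf3, was not called without WWv 2, WWv 4 or WWv 5, with library size only or with the covariate (0.09, adjusted p = 0.443). The call of Tbk1, the fourth that fell and outside the rule for named genes, was lost with the covariate too.

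Of 11 NF-kB subunits and inhibitors 2 fell and 0 rose (median −0.17, 18.2% called against 28.2% of all tested genes). They were Bcl3 (21.0 ± 5.44 to 6.37 ± 0.953 CPM, −1.72 ± 0.19, adjusted p = 0.000402) and Nfkbiz (64.9 ± 13 to 30.9 ± 7.32 CPM, −1.07 ± 0.17, adjusted p = 0.00187), genes of nuclear IkB proteins that act as cofactors. Gm16175 overlaps Bcl3, and Nfkbiz was at −0.82 with the covariate, not called (adjusted p = 0.0524). Rela, the gene of the subunit that IKK-beta releases and chosen after its values were seen, was at 89.3 and 89.4 CPM (0.00, adjusted p = 0.976). The lower genes numbered 4 without WWv 1, 3 without WT 2, 3 with the covariate and 5 with library size only.

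Of 14 other MAP3 kinase genes tested, 3 rose and 1 fell (median 0.04). The called share, 28.6%, was close to the 28.2% of all tested genes. It is not the share of the whole family. Map3k14 and Map3k8 are MAP3 kinase genes too but were counted with the IKK-related kinases, and both fell (−0.53 and −1.44). Map3k3, which encodes MEKK3, rose by 0.36 ± 0.05 (adjusted p = 0.000823), Map3k10 by 0.42 ± 0.09 (adjusted p = 0.00841, with Ttc9b overlapping it), and Map3k6 fell by 0.37 ± 0.05 (adjusted p = 0.000726). The changes of Map3k3, Map3k10 and Map3k6 passed under all 20 alternatives. The other higher gene, Map3k20 (0.19 ± 0.06, adjusted p = 0.0291), lost its call without WT 1, 4 or 5 or WWv 2, 3, 4 or 5. It was also lost with library size only, the replicate block or the covariate, and without the filter on low counts. Leaving out 1 library gave 2 to 4 higher genes, with 4 without WT 2. There were 2 lower genes without WWv 5 or with library size only. Of 19 tested partners and substrates of NLK 5 rose and 2 fell (median 0.04, 36.8% called against 28.2% of all tested genes). Yap1, a transcriptional coactivator that NLK phosphorylates, rose from 215 ± 7.47 to 263 ± 9.17 CPM (0.29 ± 0.04, adjusted p = 0.00132), Hipk2, a kinase that can act above NLK, by 0.58 ± 0.14 (adjusted p = 0.0110) and Foxo1, a forkhead factor, by 0.40 ± 0.09 (adjusted p = 0.0103). Gm20416 overlaps Yap1 and Gm20402 overlaps Foxo1, and with the covariate Hipk2 was at 0.27 (adjusted p = 0.332) and Foxo1 at 0.48 (adjusted p = 0.0675), neither of them called. The list then had 1 higher and 0 lower, and with library size only 3 higher and 4 lower. Ctnnb1, the gene of beta-catenin overlapped by Ulk4 and chosen after its values were seen, was at 447 CPM in both groups (0.00, adjusted p = 0.992). Without WT 2 there were 8 higher and 5 lower partners, without WWv 2 or WWv 3 there were 3 higher, and without any library other than WT 2 or WWv 5 there was 1 lower.

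**Figure D5:**
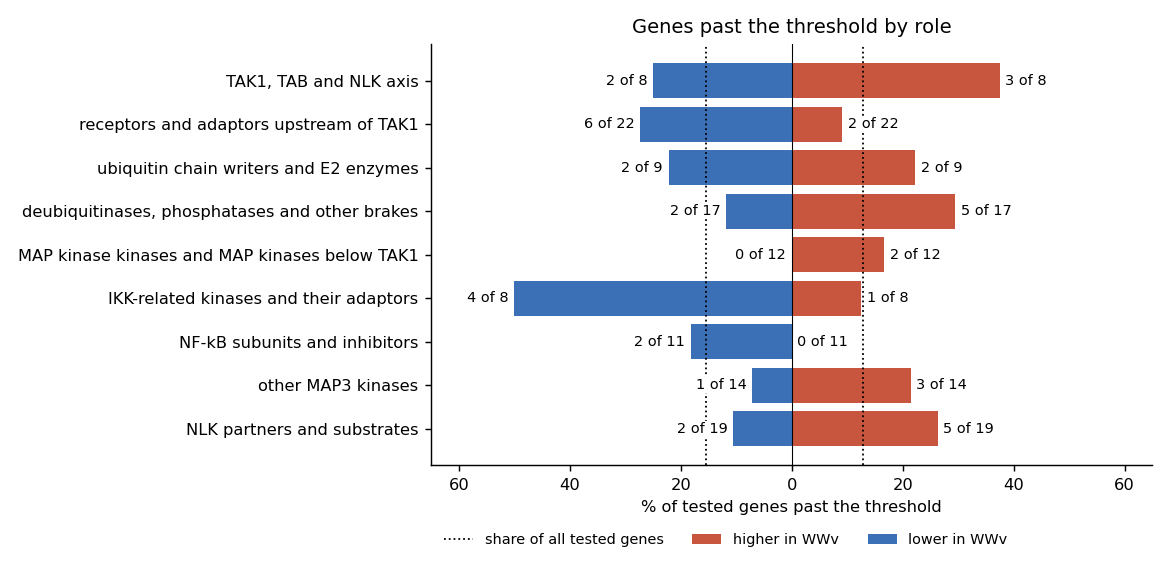
Share of tested genes past the threshold in each list (horizontal axis, %), higher in WWv to the right in red and lower to the left in blue, with counts beside the bars and dotted lines at 12.8% and 15.4% for all tested genes. The list of IKK-related kinases and their adaptors has 4 of 8 lower (1 of 8 with the cell cycle covariate). Map3k14 and Map3k8 are counted in it and not with the other MAP3 kinases. The NF-kB list has 0 of 11 higher.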

How the data were processed

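RNA of 10 libraries, 5 WT and 5 WWv, was analysed from the whole-number counts per gene that the authors deposited. Per the submitters' processing notes, reads were handled with bcl2fastq 2.17, Trim Galore 0.4.3 and STAR 2.5.2a on mm10, the build GENCODE M21 (GRCm38) annotates. How reads were counted, with what strand setting and annotation, is not given in the sources used here, so genes overlapping another are called uncertain. Of 54446 IDs 54409 matched GENCODE without the version, and a symbol shared by several IDs went to the one with most counts. Groups were taken from the sample titles. Group was the sole term of a quasi-likelihood fit (edgeR 4.0.16 under R 4.3.3, two-sided) with TMM scaling and filterByExpr at a minimum count of 10, and p was adjusted over 15181 genes. The standard error is the absolute log2 fold change over the square root of F. Log2 CPM used a prior count of 2. Alternatives used limma 3.58.1 and DESeq2 1.42.0 besides edgeR. The procedure was tested on simulated counts with 1 dispersion for all genes (biological coefficient of variation 0.161). It recovered 6% of the genes changed 1.2-fold, 60% at 1.5-fold, 96% at 2-fold and 100% at 4-fold. Of 135 calls 4 were false. The members varied less within groups (1.77% to 10.2%), so these shares are not those for the members. Within groups no pair of libraries agreed within sampling noise.

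The members, the 13 other gene lists, the alternatives and the rule for named genes were chosen with earlier results of these data known. The rule names the 8 members and Kit, from each list up to 4 called genes with the largest change, or the 1 with the smallest p, and for each member the 3 genes most like it. The text names some of these, and says where a gene outside the rule is named. The replicate numbers in the titles were checked and did not pair the libraries. Promoter sequences are from RefSeq, whose table held 6 of the 8 members.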

Additional observations from a re-analysis of the deposited data

Results flagged for a closer look

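Dixon's test at its 95% level was applied to 102 groups of 5 libraries. They covered the 8 members, Kit and the genes the rule names from the lists, not the genes most like each member. In these groups 11 values lay far outside the other 4 libraries of their group. Chance gives about 1 such group in 20. No member of the axis was among them. WT 2 gave 5 of the 11: Bcl3 at 11.7 CPM against 21.7 to 24.9 CPM in the other WT libraries, Map3k8 at 3.41 CPM against 9.60 to 11.6, Ccne1 at 27 CPM against 18.6 to 20.8, Peli2 at 12.8 CPM against 7.10 to 8.51 and Ppm1l at 12.6 CPM against 4.78 to 7.00. In each of these 5 WT 2 lay on the side of the WWv mean. The others were Acta2 at 8205 CPM and Pdgfra at 250.3 CPM in WT 5, Foxo1 at 32.2 CPM in WT 4, Pdgfra at 259 CPM and Rbck1 at 54.2 CPM in WWv 1, and Dcn at 59.5 CPM in WWv 5.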

How the results depend on the processing

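The counts of calls moved with scaling, weighting and single libraries. Main counts were 3 members higher and 2 lower, with 1940 genes higher and 2334 lower in all. Library size only gave 0 members higher and 983 and 3599 genes higher and lower. Without the low-count filter 1 member was lower. limma-voom with quality weights gave 5 members higher and 3595 and 3806 genes. The cell cycle covariate gave 0 members higher and 0 lower, and 728 and 520 genes. Under it the log2 fold change turned to −0.02 in Map3k7, 0.0001 in Tnip2 and 0.33 in Dcn. Leaving out 1 library gave 2 to 5 members higher and 1 to 2 lower, and 1286 to 3507 genes higher and 1721 to 3620 lower. The highest of these counts, except that of lower members, came without WT 2. The fits without 1 library also rest on fewer libraries. The cause of these moves was not tested.

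With the replicate number as a block 3 members were higher and 2 lower, and 1693 and 1943 genes. Same-numbered libraries had correlations of their deviations from the group means of −0.092 to 0.308, so the block is not taken as pairing.

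With 5 libraries per group, differences as small as those of the members will often go uncalled, and the counts are of transcripts, not of protein or phosphorylation.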

Other observations

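How the members varied within groups is given as a description over the 10 libraries, from deviations of log2 CPM from the group means. Map3k7 and Ikbkb deviated in opposite directions (r = −0.85, and −0.60 without WT 2). Tab1 deviated against Nlk (−0.64, and −0.63 without WT 2) and against Ikbkg (−0.64, and −0.66). Nlk and Chuk deviated together (0.57, and 0.60). Ikbkb and Ikbkg, whose group differences had opposite signs, showed 0.04 within groups, and Map3k7 with its adaptor Tab3 showed 0.07. All 10 libraries share one scaling, and no test was made.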
